A study of Mus musculus with 14 samples.

Results

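The ligands and receptors of the platelet-derived growth factor (PDGF) and vascular endothelial growth factor (VEGF) families were followed by RNA-seq in mouse mammary epithelial cells. They comprised 9 genes of the 23284 listed, found by their symbols, namely the 7 ligand genes Pdgfa, Pdgfb, Pdgfc, Vegfa, Vegfb, Vegfc and Pgf and the 2 receptor genes Pdgfra and Pdgfrb. The genes were chosen on values measured in these libraries, in particular the level of Pdgfrb after transfection of siRNAs against Etv4 and Etv5, so the siRNA comparison is given below as a description without a test. EpH4 is a line of epithelial cells of the mouse mammary gland, and EpRas is its derivative transformed with oncogenic H-Ras (H-RasG12V). Each line was treated with 1 ng/ml TGF-β3 for 48 h or left untreated, which gave 4 groups of untransfected cells with 2 libraries each. In addition, EpRas cells were transfected with the control siRNA siNC, with Etv4/5 siRNA pair 1 or with Etv4/5 siRNA pair 2 (each pair holding 1 siRNA against Etv4 and 1 against Etv5), with and without the same TGF-β treatment, with 1 library per condition. EpH4 cells were grown in 10% serum and EpRas cells in 4% serum, so transformation and serum cannot be told apart in any comparison of the lines, and each line stands for 1 cell line rather than for several clones.

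PDGF and VEGF ligands are secreted as dimers of related cystine-knot proteins. PDGF-A, PDGF-B and PDGF-C bind the receptor tyrosine kinases PDGFRα and PDGFRβ, which are typical of mesenchymal cells such as fibroblasts and pericytes. VEGF-A, VEGF-B, VEGF-C and PlGF (encoded by Pgf) bind VEGF receptors, which are typical of blood and lymphatic endothelium. In the mammary gland, as in other epithelia, the ligands are often made by the epithelium and received by the stroma.

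All values are FPKM, that is, sequenced fragments scaled to the exon length of the gene and to the total of the library, which can be compared between genes within a table. Differences were tested with limma on log2(FPKM + 1) across genes with 5 FPKM or more in some library of their table, and a gene was called where the p-value adjusted over all these genes by the Benjamini-Hochberg method was under 0.05. This filter left 9100 genes in the untransfected table, with 8 of the 9 members, and 9094 genes in the siRNA table, with 9 of 9. Pdgfra, whose highest value in untransfected cells was 3.16 FPKM, was not tested there. The libraries had 0.609 to 2.2 times the depth of untreated EpH4 replicate 1, as read from the steps between low FPKM values. Cuffdiff was run separately for the 2 tables, on samples processed independently, so values of transfected and untransfected cells are set side by side only.

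The epithelial label was checked against 7 markers. Epcam, Cdh1, Krt8, Krt18 and Krt14 reached 5 FPKM in every library, Krt19 was at 0 in the EpH4 libraries, and Krt5 was at or near 0 throughout. The summed level of the list was 1594 and 2976 FPKM in the treated EpRas libraries, which stood further apart than other replicates (r = 0.912 across genes, against 0.957 to 0.982), and every result for treated EpRas cells rests on them. Krt14 had the directions of Pdgfrb with TGF-β. In EpH4 cells it had 327 and 386 FPKM without and 851 and 784 FPKM with TGF-β. In EpRas cells it had 103 and 115 FPKM without and 62.2 and 64.6 FPKM with TGF-β. Cdh1 had the same directions, with 49.1 and 53.2 against 93.7 and 85.0 FPKM in EpH4 cells. In EpRas cells Cdh1 had 24.4 and 27.4 against 20.6 and 18.2 FPKM. Epcam and Krt8 were higher with TGF-β in EpH4 cells, but their EpRas groups overlapped. Krt18 overlapped in both lines, and Krt19 was lower with TGF-β in EpRas cells. The summed FPKM of the 6 endothelial markers (Pecam1, Cdh5, Kdr, Tek, Tie1 and Emcn) lay between 0 and 2.01, and Emcn was at 0 in all libraries. Of the 3 leukocyte markers, Ptprc and Cd3e were at or near 0, while Cd68 had 0.293 to 2.75 FPKM in EpH4 and 3.81 to 7.13 FPKM in untransfected EpRas cells. With siNC, pair 1 and pair 2, Cd68 had 5.17, 2.83 and 3.94 FPKM in untreated and 6.52, 2.18 and 3.37 FPKM in treated cells. The part of these markers in the results was not tested. Of the 7 markers of pericytes and fibroblasts, the list that shares Pdgfra with the members, Lum was at 0 in every library and Rgs5, Dcn and Cspg4 were at or near 0. The sum of that list was 19.8 and 22.4 FPKM in the untreated EpH4 libraries, 226 and 203 FPKM in the treated EpH4 libraries, 4.49 to 5.48 FPKM in those of untransfected EpRas cells and 4.09 to 31.8 FPKM in those of siRNA-transfected EpRas cells, with Col1a1 as its main contributor in EpH4 cells.

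Pdgfa, Pdgfc, Vegfa and Vegfc were the ligand genes called higher after TGF-β treatment in EpH4, EpRas and siRNA-transfected EpRas cells, and their promoters are shown for this reason. The RefSeq promoter table (GRCm38.p6, the same assembly as mm10) held windows of 250 bases before to 50 bases after the start for 7 of the 9 members, and the 250 bases before the start are printed 5′ to 3′ on the strand of the gene. Capitals mark the GC box (GGGCGG, or CCGCCC on the other strand) and the Smad-type motif CAGACA.
Pdgfa (chr5:138994945-138995194, minus): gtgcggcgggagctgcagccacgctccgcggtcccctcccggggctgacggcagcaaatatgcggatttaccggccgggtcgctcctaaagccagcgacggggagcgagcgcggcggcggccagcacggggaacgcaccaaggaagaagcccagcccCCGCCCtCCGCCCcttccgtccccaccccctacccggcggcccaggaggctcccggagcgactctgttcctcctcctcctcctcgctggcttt
Pdgfc (chr3:81036166-81036415, plus): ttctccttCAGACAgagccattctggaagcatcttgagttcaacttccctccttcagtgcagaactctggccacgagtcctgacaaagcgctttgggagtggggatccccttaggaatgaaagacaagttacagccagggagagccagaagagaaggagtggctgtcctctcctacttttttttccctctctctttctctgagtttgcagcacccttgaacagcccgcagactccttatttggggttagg
Vegfa (chr17:46032378-46032627, minus): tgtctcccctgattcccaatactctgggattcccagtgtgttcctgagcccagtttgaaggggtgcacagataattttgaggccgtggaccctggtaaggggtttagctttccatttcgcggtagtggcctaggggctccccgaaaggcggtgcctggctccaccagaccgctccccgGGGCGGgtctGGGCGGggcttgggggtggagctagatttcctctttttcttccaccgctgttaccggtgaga
Vegfc (chr8:54077282-54077531, plus): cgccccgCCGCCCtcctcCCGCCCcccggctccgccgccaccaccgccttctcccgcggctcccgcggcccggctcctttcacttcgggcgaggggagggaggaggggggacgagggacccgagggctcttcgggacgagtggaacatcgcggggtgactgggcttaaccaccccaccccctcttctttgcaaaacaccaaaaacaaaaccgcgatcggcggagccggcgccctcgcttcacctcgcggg

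The windows of Pdgfa, Vegfa and Vegfc held 2 GC boxes each and that of Pdgfc held none. That of Vegfb, a ligand not called after TGF-β, held 4. A GC box was present in 35.7% of the 32851 windows of the table. The Smad-type motif was present in the window of Pdgfc, in none of the other 3 printed, and in 21% of all windows. The printed windows are those that hold the start of the gene in the expression data. A second window of Vegfa, without that start, held 1 GC box and 2 Smad-type motifs. A second window of Pdgfa, also without it, held 1 GC box and 0 Smad-type motifs. Both strands were searched for each motif. The ETS motif CCGGAA was absent from all 4 and present in 14.9% of all windows. The AP-1 motif TGACTCA was likewise absent from all 4 and present in 5.2% of all windows. The TATA box TATAAA was absent from all 4 and present in 13.6% of all windows. These matches only describe the letters of these windows.

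The genes lie on 8 chromosomes of the mm10 build, and all are protein coding. Pdgfa (5:138976014-138997370, minus strand) and Pdgfra (5:75152292-75198215, plus strand) share chromosome 5, Pdgfb lies at 15:79995874-80014977 (minus), Pdgfc at 3:81036416-81214040 (plus), Vegfa at 17:46016993-46032369 (minus), Vegfb at 19:6982473-6987651 (minus), Vegfc at 8:54077606-54187096 (plus), Pgf at 12:85166635-85177790 (minus) and Pdgfrb at 18:61045150-61085061 (plus). Antisense genes overlap Pdgfa, Pdgfb, Pdgfc and Pdgfra in the GENCODE annotation. Whether strand was used in counting is not given in the sources used here, so reads of these genes and of their antisense partners may not be separated.

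Among the PDGF ligands, Pdgfa encodes the A chain, which signals mainly through PDGFRα. In EpH4 cells its level was 90.1 and 94.9 FPKM without and 553 and 518 FPKM with TGF-β treatment, and in EpRas cells 71.5 and 68.6 FPKM without and 336 and 340 FPKM with it. All treated libraries lay above all untreated ones, and the treated EpRas libraries lay below the treated EpH4 libraries. Pdgfa rose with TGF-β by 2.52 ± 0.14 in EpH4 cells (log2(FPKM + 1), ± SE, n = 2 per group, limma adjusted p = 0.000128) and by 2.26 ± 0.14 in EpRas cells (adjusted p = 0.000347). In these bulk samples fewer cells expressing a gene and less RNA per cell cannot be told apart. The difference between both effects was -0.26 ± 0.19 and did not pass the test (adjusted p = 0.659). With TGF-β, Pdgfa was lower in EpRas than in EpH4 cells by 0.66 ± 0.14 (log2 difference -0.66, adjusted p = 0.0139), whereas the difference without TGF-β was -0.39 ± 0.14 (adjusted p = 0.093). The call with TGF-β was lost without either treated EpH4 library (adjusted p = 0.119 and 0.0766) and in the fit of only these 2 groups (adjusted p = 0.0534).

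Pdgfb encodes the B chain, which binds both PDGF receptors. Its level in EpH4 cells was 45.9 and 56.0 FPKM without and 266 and 249 FPKM with treatment, and in EpRas cells 45.4 and 32.0 FPKM without and 63.1 and 96.2 FPKM with treatment. The treated libraries of each line lay above the untreated ones, but the EpRas replicates were further apart than those of EpH4. Pdgfb rose by 2.32 ± 0.26 in EpH4 cells (adjusted p = 0.00168), and the effect in EpRas cells was 1.01 ± 0.26 (adjusted p = 0.091). The difference between the effects was -1.31 ± 0.36 and was not called (adjusted p = 0.237). With TGF-β, Pdgfb was lower in EpRas than in EpH4 cells (log2 difference -1.71 ± 0.26, a 3.24-fold lower mean FPKM, adjusted p = 0.00348), and this was called under every alternative tried (adjusted p 0.0023 to 0.037).

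Pdgfc encodes a ligand that is secreted in a latent form and cleaved by proteases outside the cell. In EpH4 cells its level was 6.99 and 7.70 FPKM without and 26.5 and 26.4 FPKM with treatment, and in EpRas cells 11.9 and 10.2 FPKM without and 22.8 and 18.7 FPKM with treatment. Untreated EpRas libraries were thus above untreated EpH4 libraries, and the order was the opposite with TGF-β, but neither difference between the lines was called (0.53 ± 0.16, adjusted p = 0.0659, and -0.34 ± 0.16, adjusted p = 0.179). Pdgfc rose with TGF-β by 1.72 ± 0.16 in EpH4 cells (adjusted p = 0.000867) and by 0.85 ± 0.16 in EpRas cells (adjusted p = 0.0344). The EpRas call was lost in 9 of 16 alternatives, which included the fit to the EpRas groups alone (adjusted p = 0.235) and the omission of any untransfected library other than the second treated EpRas library (adjusted p 0.067 to 0.191).

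Among the VEGF ligands, Vegfa encodes the main growth factor of blood vessel endothelium and is known as a target of hypoxia signalling. Its level in EpH4 cells was 38.8 and 41.1 FPKM without and 273 and 249 FPKM with treatment, and in EpRas cells 61.9 and 54.0 FPKM without and 296 and 370 FPKM with treatment. Vegfa rose with TGF-β by 2.68 ± 0.17 in EpH4 cells (adjusted p = 0.000192) and by 2.50 ± 0.17 in EpRas cells (adjusted p = 0.000524). This was a 6.54-fold and a 5.75-fold higher mean FPKM. EpRas libraries lay above EpH4 libraries in both states, but the difference was called in neither (0.52 ± 0.17, adjusted p = 0.0778, and 0.34 ± 0.17, adjusted p = 0.196).

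Vegfc encodes the main growth factor of lymphatic endothelium. In EpH4 cells its level was 12.8 and 13.8 FPKM without and 58.7 and 57.4 FPKM with treatment, and in EpRas cells 5.49 and 4.20 FPKM without and 28.6 and 32.4 FPKM with treatment. Vegfc was thus lower in EpRas than in EpH4 cells in both states, and higher with TGF-β in both lines. The log2 difference between EpRas and EpH4 cells was -1.30 ± 0.17 in the untreated state (adjusted p = 0.00246). In the treated state it was -0.91 ± 0.17 (adjusted p = 0.00796, but 0.0701 and 0.0603 without the first or the second treated EpH4 library). TGF-β raised it by 2.05 ± 0.17 in EpH4 cells (adjusted p = 0.000494) and by 2.43 ± 0.17 in EpRas cells (adjusted p = 0.000524).

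Vegfb, a ligand of VEGFR1 that is abundant in many tissues, had another pattern from Vegfa and Vegfc. Its level in EpH4 cells was 60.2 and 66.9 FPKM without and 45.8 and 41.0 FPKM with treatment, and in EpRas cells 84.1 and 80.7 FPKM without and 67.0 and 57.4 FPKM with treatment. The treated libraries lay below the untreated ones in each line, but the differences of -0.54 ± 0.16 and -0.40 ± 0.16 were not called (adjusted p = 0.0799 and 0.27). Vegfb was the ligand of the highest mean level in untreated EpRas cells (82.4 ± 2.36 FPKM, SD, n = 2), where Pdgfa followed at 70.1 ± 2.05 FPKM with libraries that did not overlap.

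Pgf, which encodes the VEGFR1 ligand PlGF, was the lowest of the ligands. In EpH4 cells it was at 0.249 and 0 FPKM without and at 0.518 and 0 FPKM with treatment. In EpRas cells it was at 1.84 and 3.08 FPKM without and at 5.80 and 5.04 FPKM with treatment, above every EpH4 library. The FPKM of Pgf were whole multiples of the value of 1 read, within 0.1 read, which gave 2, 0, 3 and 0 reads in the EpH4 libraries and 9, 28, 40 and 27 reads in the EpRas libraries. A library with 0 reads allowed a level of up to 0.275 FPKM (untreated) or 0.348 FPKM (treated), taken as 3 reads. Between the lines, Pgf was higher in EpRas cells by 1.61 ± 0.26 in the untreated state (adjusted p = 0.00692) and by 2.38 ± 0.26 in the treated state (adjusted p = 0.000865). Pgf reached the 5 FPKM of the filter only in the treated EpRas libraries, that is, in the group where it was high. With 0.1 or 5 FPKM added in place of 1, the difference was 3.73 or 0.54 in the untreated and 4.47 or 0.99 in the treated state, so its size depended on that value. Without the filter both calls were kept (adjusted p = 0.0148 and 0.0032). The ratio of the pooled reads per depth was 25.02 (95% exact binomial interval 6.45 to 214) without and 26.3 (8.62 to 131) with TGF-β, and the intervals cover counting error only. The call without TGF-β was lost when the second untreated EpH4 library was left out (adjusted p = 0.0525). The effect of TGF-β was 0.14 ± 0.26 in EpH4 cells (adjusted p = 0.795) and 0.91 ± 0.26 in EpRas cells (adjusted p = 0.134).

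**Figure D1:**
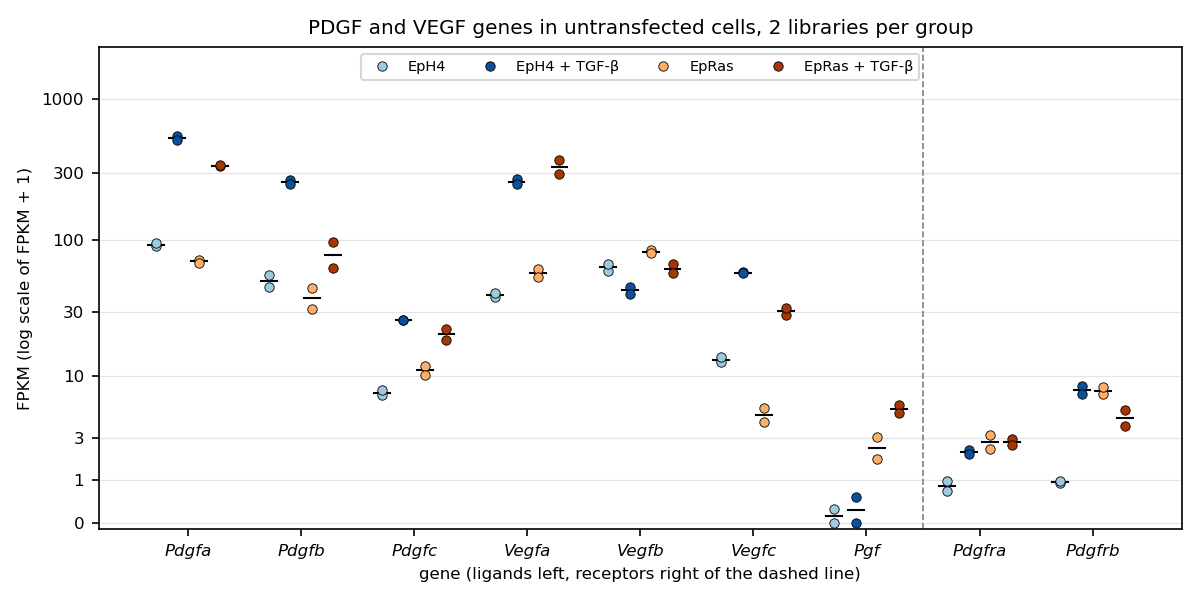
FPKM of the 9 genes in the 8 untransfected libraries, on a log scale of FPKM + 1, with 1 point per library and a bar at the mean of the log values of each group. Pdgfa, Vegfa, Pdgfc and Vegfc lie higher with TGF-β in both lines, Pgf lies above the EpH4 libraries in all EpRas libraries, and Pdgfrb is lowest in the untreated EpH4 libraries, at 0.915 and 0.988 FPKM.

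Pdgfrb encodes PDGFRβ, the receptor of PDGF-B that is needed for the recruitment of pericytes. In EpH4 cells its level was 0.915 and 0.988 FPKM without and 8.24 and 7.21 FPKM with treatment, and in EpRas cells 7.14 and 8.11 FPKM without and 3.81 and 5.34 FPKM with treatment. TGF-β thus went with higher values in EpH4 cells and with lower values in EpRas cells, with no overlap in either line. The reads behind these values, recovered from the steps of the FPKM, were 28 and 41, 182 and 237, 133 and 281, and 100 and 109 in the same order. In untreated cells Pdgfrb was higher in EpRas than in EpH4 cells by 2.14 ± 0.18 (adjusted p = 0.000354), an 8.01-fold higher mean FPKM. With TGF-β it was lower in EpRas cells (-0.66 ± 0.18, adjusted p = 0.0395), but this call was lost in 11 of 16 alternatives (adjusted p 0.0162 to 0.229 over all), including the omission of every library other than the second treated EpRas library.

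Pdgfrb rose with TGF-β in EpH4 cells by 2.16 ± 0.18 (adjusted p = 0.000545), an 8.12-fold higher mean FPKM, and it was called there under every alternative (adjusted p up to 0.0121). The sum of the pericyte and fibroblast marker list was also higher with TGF-β in these EpH4 libraries. Of its 7 genes, Col1a1 had a mean of 19.96 FPKM without and 212 FPKM with TGF-β and Pdgfra one of 0.827 and 2.17 FPKM, Des was under 0.5 FPKM in all 4 libraries, and Lum, Rgs5, Dcn and Cspg4 were at or near 0. The part of that list in the Pdgfrb values was not tested. In EpRas cells the effect of TGF-β was -0.64 ± 0.18 (adjusted p = 0.124) and the marker sum stayed between 4.49 and 5.48 FPKM. The difference between both effects, EpRas minus EpH4, was -2.80 ± 0.26 (adjusted p = 0.00636) and Pdgfrb was the only member called in this comparison, where 0.802% of all genes tested were called (0.626% lower). The call was lost without the first untreated EpH4 library (adjusted p = 0.0505), the first or the second treated EpH4 library (0.0707 and 0.0535) or the second untreated EpRas library (0.0517), and the difference lay between -2.6 and -3.0 when 1 library was left out. The size of these Pdgfrb differences depended on the value added before the logarithm. With 0.1 or 5 FPKM added, the difference between both effects was -3.63 or -1.498, the effect of TGF-β in EpH4 cells 2.89 or 1.096 and the difference between the untreated lines 2.87 or 1.08, all called.

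Pdgfra encodes PDGFRα, the receptor of PDGF-A and PDGF-C. Its level in EpH4 cells was 0.668 and 0.986 FPKM without and 2.27 and 2.07 FPKM with treatment, and in EpRas cells 2.33 and 3.16 FPKM without and 2.90 and 2.57 FPKM with treatment. The untreated EpH4 libraries were the lowest, and the groups of EpRas cells overlapped. Without the filter on low values, Pdgfra was higher in untreated EpRas than in untreated EpH4 cells by 1.03 (adjusted p = 0.00957) and higher with TGF-β in EpH4 cells by 0.80 (adjusted p = 0.0335), with an effect of 0.0029 in EpRas cells.

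**Figure D2:**
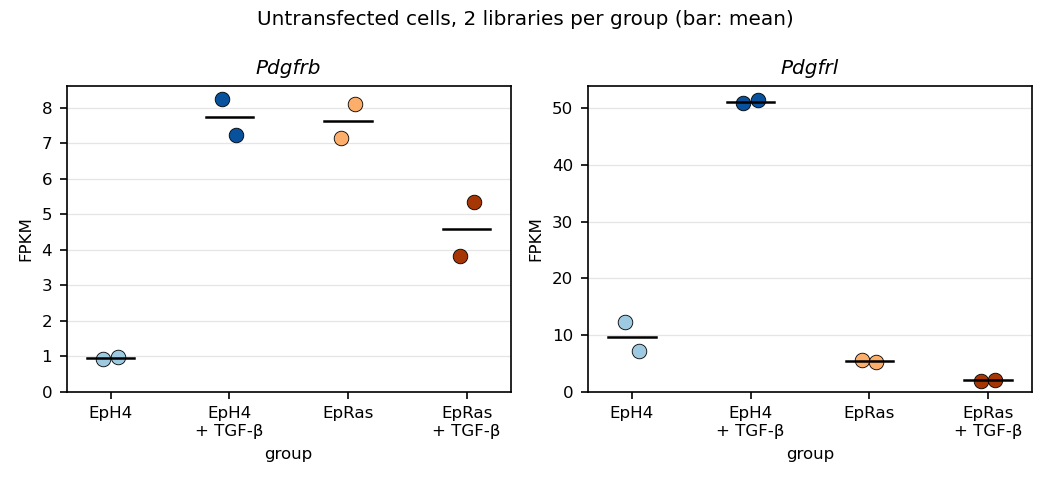
FPKM of Pdgfrb and of Pdgfrl in the 4 groups of untransfected cells, with 1 point per library and a bar at the mean. Both lie higher with TGF-β in EpH4 cells (Pdgfrb 8.24 and 7.21 FPKM, Pdgfrl at a mean of 51.2 FPKM) and lower with TGF-β in EpRas cells.

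Counted over the members, TGF-β raised 6 of the 8 tested genes in EpH4 cells, against 9.4% of all 9100 genes called there (6.48% higher and 2.91% lower). The median difference of the tested members was 2.10, against -0.016 for all genes tested. In EpRas cells it raised 4 of 8, against 3.82% of all genes called (1.9% higher and 1.92% lower), with medians of 0.96 and -0.019. The treated and untreated libraries did not overlap for 8 of 9 members in EpH4 cells, as for 60.6% of all genes tested, and for 8 of 9 in EpRas cells, as for 39.4% of all genes. The genes were chosen with such results known, so these counts describe the members and do not test them as a group. Between the lines, 3 of 8 were called without TGF-β (Pdgfrb and Pgf higher and Vegfc lower in EpRas cells), against 17.6% of all genes (8.45% higher and 9.11% lower). With TGF-β, 5 of 8 were called (Pgf higher and Pdgfa, Pdgfb, Vegfc and Pdgfrb lower in EpRas cells), against 21.3% of all genes (8.92% higher and 12.3% lower). Pgf passed the filter only through the treated EpRas libraries, where it was high, so its place in both counts supports no conclusion. The groups did not overlap for 9 of 9 members in either comparison of the lines, which held for 61% and 63% of all genes tested.

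The order of the mean levels changed with treatment. Without TGF-β, Pdgfa was the highest in EpH4 cells (92.5 ± 3.39 FPKM, SD, n = 2), followed by Vegfb (63.5 ± 4.73 FPKM), Pdgfb (51.0 ± 7.12 FPKM) and Vegfa (39.9 ± 1.66 FPKM), with no overlap between neighbours. With TGF-β, Pdgfa was highest in EpH4 cells (535 ± 24.6 FPKM), and Vegfa and Pdgfb followed at 261 ± 17.0 and 258 ± 11.8 FPKM with overlapping libraries. In treated EpRas cells the libraries of Pdgfa (338 ± 2.92 FPKM) and Vegfa (333 ± 52.1 FPKM) overlapped. Both receptors were below Pdgfa, Pdgfb, Pdgfc, Vegfa and Vegfb in mean level in each of the 4 untransfected groups, and Pdgfrb was above Vegfc in untreated EpRas cells. These orders are descriptions of levels per length, without a test.

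In siRNA-transfected EpRas cells, the effect of TGF-β was fitted over the 3 siRNA conditions with the condition as a block. Each condition had 1 library with and 1 without TGF-β, so the 3 conditions stood in for replicates. A difference of the TGF-β effect between siNC and the siRNA pairs is thus part of the error, and these p-values do not measure biological replicates. TGF-β raised 6 of the 9 members, against 4.17% of all 9094 genes called (2.62% higher and 1.55% lower). Of these 9, Pdgfra passed the filter only through the treated siNC library, at 6.79 FPKM, and Pgf only through the treated library of pair 2. Both thus entered the count through treated cells. Vegfc rose by 2.23 ± 0.13 (adjusted p = 0.00585), from 2.97 to 17.1 FPKM with siNC, from 5.19 to 27.7 FPKM with pair 1 and from 5.17 to 28.9 FPKM with pair 2, which was 5.34- to 5.78-fold in each condition. Vegfa rose by 2.08 ± 0.19 (adjusted p = 0.0128), from 86.3 to 284 FPKM, from 48.2 to 278 FPKM and from 73.3 to 305 FPKM in the same order. Pdgfa rose by 2.00 ± 0.25 (adjusted p = 0.0215), from 47.0 to 130 FPKM, from 50.5 to 185 FPKM and from 63.4 to 413 FPKM.

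Pdgfb rose by 1.5 ± 0.21 (adjusted p = 0.0259), Pdgfc by 1.2 ± 0.13 (adjusted p = 0.0178) and Pgf by 0.83 ± 0.14 (adjusted p = 0.0389). Pgf passed the filter only through the treated library of pair 2, at 5.41 FPKM, and its call was lost in 6 of 8 alternatives (adjusted p up to 0.384). Each of these 6 genes was higher with TGF-β in 3 of 3 siRNA conditions, as were 23.5% of all genes tested. Vegfb was lower with TGF-β in 3 of 3 conditions, as were 20.7% of all genes, without being called (-0.42 ± 0.13, adjusted p = 0.147). Pdgfrb was higher with TGF-β in 3 of 3 conditions (0.58 ± 0.15, adjusted p = 0.112), whereas its values were lower with TGF-β in untransfected EpRas cells. When siRNA pair 1 was left out, limma called 0 members (6 at an unadjusted p under 0.05), and 1 (Vegfc) was called without pair 2. Without the filter on low values 0 members were called (8 at an unadjusted p under 0.05), and without the siRNA block Vegfa and Vegfc were called.

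**Figure D3:**
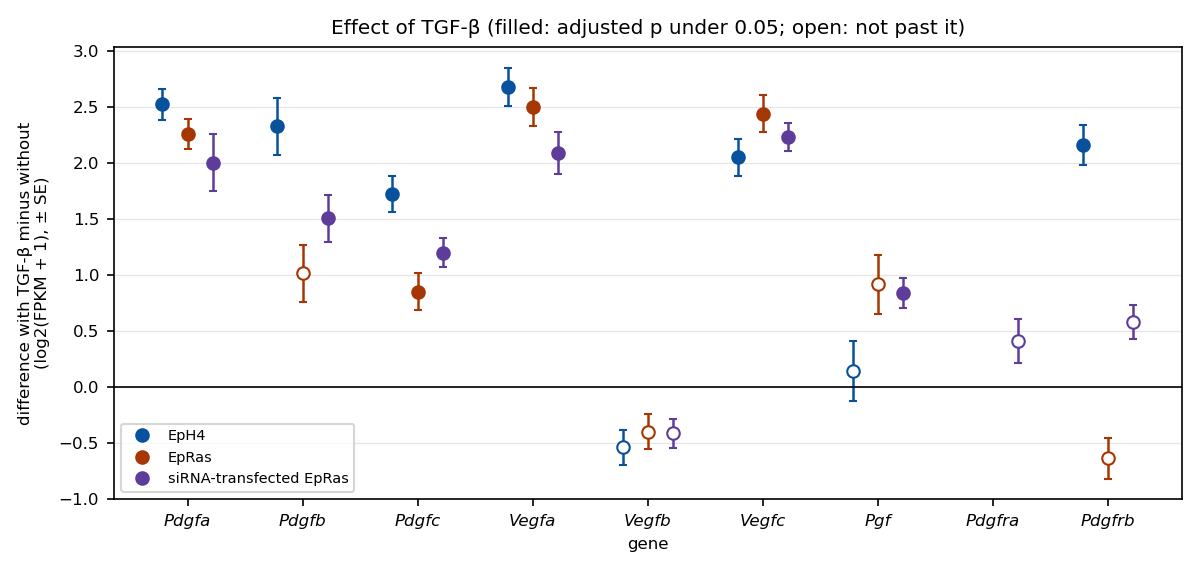
Effect of TGF-β (treated minus untreated, log2(FPKM + 1)), with its standard error, for the 9 genes in EpH4, EpRas and siRNA-transfected EpRas cells. Filled points passed an adjusted p of 0.05 and open points did not, and Pdgfra has no point where it was not tested. Pdgfrb lies at 2.16 in EpH4 cells and at -0.64 in EpRas cells.

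The knockdown was checked first on its targets, which encode ETS transcription factors of the PEA3 subfamily. The siRNAs left 20.2 and 48.5% of the Etv4 level with pair 1 and pair 2 without TGF-β, and 19.6 and 29.4% with TGF-β. For Etv5, 18.3 and 14.2% were left without and 23.2 and 22.5% with TGF-β. Pair 2 combined the siRNAs siEtv4_2 and siEtv5_2. The sequence of siEtv5_2, as read from the labels, is shown as 1 of the siRNAs on which the values of pair 2 rest, and its reverse complement was found in 2 of 5 annotated Etv5 transcripts.
siEtv5_2: uuaaauuccaugccucggccagucc

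With 1 library per condition there was no test of the knockdown, and a member counted as changed where both siRNA pairs differed from siNC by at least 1 on the log2(FPKM + 1) scale in the same direction. This is 2-fold of FPKM + 1 and more than 2-fold of FPKM for low genes, so low genes reach it less easily. Pdgfrb was the only member past this limit, both without and with TGF-β, and 0.341% of all genes tested were higher by this measure in both states. Pdgfrb reached the 5 FPKM of the filter only in the 4 knockdown libraries, that is, where it was high, so its place in this count supports no conclusion. The limit was passed by 4.02% of all genes without TGF-β (1.54% higher and 2.49% lower) and by 3.82% with TGF-β (1.33% higher and 2.49% lower). In the order siNC, pair 1 and pair 2, Pdgfrb had 1.09, 5.25 and 9.35 FPKM in untreated cells and 2.09, 10.1 and 12.0 FPKM in treated cells. All 4 knockdown libraries were thus above both siNC libraries. The reads behind these values were 42, 276 and 460 without and 141, 538 and 575 with TGF-β.

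The ratio of Pdgfrb to siNC was 4.84 with pair 1 and 8.61 with pair 2 without TGF-β. With TGF-β it was 4.81 and 5.74. These ratios compare single libraries, and Pdgfrb was chosen on these values, so they are given without an interval or a test. In untransfected EpRas cells Pdgfrb was at 7.14 and 8.11 FPKM without TGF-β, beside 1.09 FPKM with siNC, in tables that were normalized separately. With 5 FPKM added in place of 1, Pdgfrb no longer passed the limit without TGF-β.

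The ligands lay closer to siNC. In the same order, Pdgfb had 12.3, 16.5 and 20.9 FPKM in untreated and 29.4, 70.8 and 51.9 FPKM in treated cells. Pdgfc had 5.29, 10.2 and 7.42 FPKM in untreated and 12.2, 26.2 and 18.9 FPKM in treated cells. Pdgfa was near its siNC level with pair 1 (50.5 against 47.0 FPKM without TGF-β), and its largest difference was that of pair 2 with TGF-β, 413 against 130 FPKM. Thus the siRNA pairs differed from each other by more than pair 1 differed from siNC for Pdgfa with TGF-β.

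In the same order, Vegfc had 2.97, 5.19 and 5.17 FPKM in untreated and 17.1, 27.7 and 28.9 FPKM in treated cells, so its values with both pairs were close to each other. Vegfb had 39.0, 59.0 and 69.6 FPKM in untreated and 29.0, 42.1 and 54.3 FPKM in treated cells. Pgf had 0.984, 1.59 and 2.86 FPKM (10, 22 and 37 reads) in untreated and 2.38, 4.21 and 5.41 FPKM (42, 59 and 68 reads) in treated cells. The Pgf values compare single libraries with few reads, so no interval or test is given for them.

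Vegfa and Pdgfra were the members that did not lie above siNC in all 4 knockdown libraries. Vegfa had 86.3, 48.2 and 73.3 FPKM in untreated cells, lower than siNC with both pairs, and 284, 278 and 305 FPKM in treated cells. Pdgfra had 3.21, 1.76 and 3.67 FPKM in untreated and 6.79, 2.33 and 3.86 FPKM in treated cells, so that in treated cells both pairs were lower than siNC. In each state 7 of the 9 members were higher with both pairs than with siNC, against 39.1% of all genes tested without and 40.4% with TGF-β. The other 7 members were higher than siNC in all 4 knockdown libraries, as were 23.9% of all genes. For each of these 7, the level with siNC was also below the mean of untransfected EpRas cells in both states, in tables that were normalized separately. That mean was 38.7 FPKM in untreated and 79.6 FPKM in treated cells for Pdgfb, 11.1 and 20.8 FPKM for Pdgfc, 82.4 and 62.2 FPKM for Vegfb, 4.85 and 30.5 FPKM for Vegfc, and 2.46 and 5.42 FPKM for Pgf. In FPKM, the values with both pairs were nearer to that mean than the siNC value in both states for the 6 ligands among these genes, and for Pdgfrb in untreated cells. The sum of the pericyte and fibroblast markers was 4.09, 17.3 and 6.10 FPKM in untreated and 9.33, 31.8 and 9.28 FPKM in treated cells, in the same order. Col1a1 of that list had 0.629, 14.3 and 2.07 FPKM in untreated and 2.44, 27.7 and 5.40 FPKM in treated cells, so like Pdgfrb it was above siNC in all 4 knockdown libraries. The level of Col1a1 was highest with pair 1 and that of Pdgfrb with pair 2, and Lum was at 0 in all 6 libraries. Krt14 was also above siNC in all 4 knockdown libraries (109, 237 and 365 FPKM in untreated and 140, 214 and 244 FPKM in treated cells). Of the other epithelial markers, Krt18 was above siNC in all 4 as well. Epcam was below siNC in all 4 (133, 112 and 111 FPKM in untreated and 222, 156 and 153 FPKM in treated cells). Cdh1 had 61.3, 63.1 and 48.3 FPKM in untreated and 68.3, 53.4 and 39.5 FPKM in treated cells. Krt8 and Krt19 went both ways. The part of these markers in the Pdgfrb values was not tested.

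**Figure D4:**
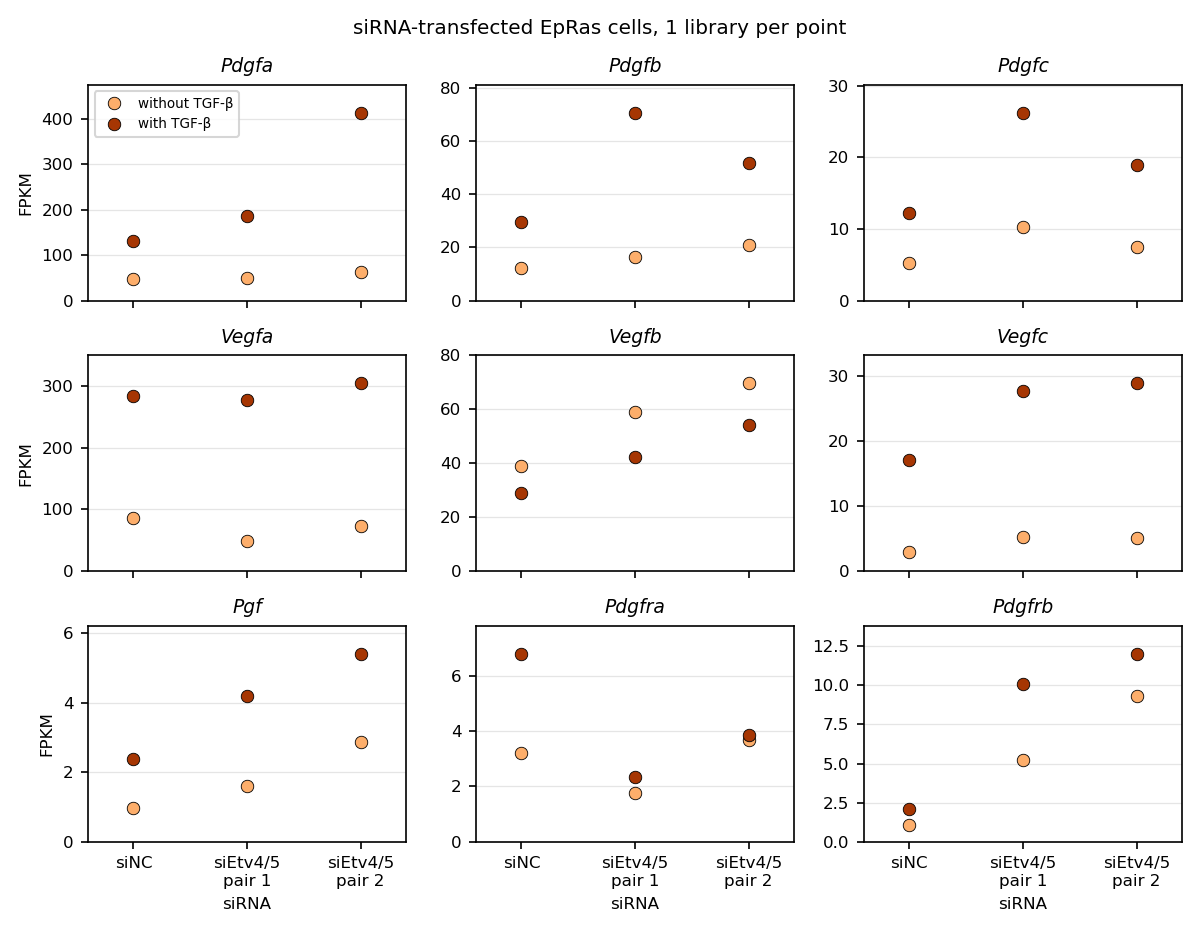
FPKM of the 9 genes in siRNA-transfected EpRas cells, with 1 library per point, a separate axis from 0 for each gene, and TGF-β shown by colour. Pdgfrb is lowest with siNC in both states (1.09 and 2.09 FPKM), and Vegfb is the gene whose values without TGF-β are above those with TGF-β in all 3 siRNA conditions.

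The pathway around these genes was described with a list of 35 genes, of which 23 were tested in untransfected and 26 in siRNA-transfected cells. Of the other ligands and receptors, Flt4 (VEGFR3) was at 0 in every library, Kdr (VEGFR2) and Pdgfd were at or near 0, and the group means of Flt1 (VEGFR1) were 0.16 to 0.429 FPKM in untransfected cells. Nrp1 had group means of 1.78 to 3.93 FPKM there, under the filter. With siNC, pair 1 and pair 2, Nrp1 had 14.3, 9.38 and 15.5 FPKM in untreated and 13.1, 6.57 and 8.53 FPKM in treated cells. Its TGF-β effect in transfected cells was not called. Nrp2, a co-receptor of VEGF ligands, had group means between 62.8 and 94.9 FPKM and rose with TGF-β in EpH4 cells by 0.59 ± 0.14 (adjusted p = 0.0404, not called in 7 of 16 alternatives). Pdgfrl, a gene with sequence similarity to the PDGF receptors, had a mean of 9.72 ± 3.61 FPKM in untreated and 51.2 ± 0.42 FPKM in treated EpH4 cells (SD, n = 2), against 5.43 ± 0.34 and 2.02 ± 0.12 FPKM in EpRas cells. It rose with TGF-β in EpH4 cells by 2.32 ± 0.23 (adjusted p = 0.001) and fell in EpRas cells by 1.09 on the log2 scale (-1.09 ± 0.23, adjusted p = 0.0489, not called in 12 of 16 alternatives). The difference between these effects was -3.41 ± 0.32 (adjusted p = 0.00729). In siRNA-transfected EpRas cells Pdgfrl was under the filter and did not fall with TGF-β in every condition. It went from 0.910 to 1.51 FPKM with siNC, from 2.53 to 2.49 FPKM with pair 1 and from 3.74 to 0.818 FPKM with pair 2.

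Among genes that process or bind the ligands, Furin, a protease that cleaves PDGF and VEGF-C precursors, rose with TGF-β by 1.47 ± 0.17 in EpH4 cells (adjusted p = 0.00212), by 0.92 ± 0.17 in EpRas cells (adjusted p = 0.0301, not called in 10 of 16 alternatives) and by 1.17 ± 0.13 in siRNA-transfected EpRas cells (adjusted p = 0.0178, not called in 4 of 9). Ccbe1, a cofactor of VEGF-C processing, rose by 0.89 ± 0.18, 1.38 ± 0.18 and 1.22 ± 0.17 in the same order (adjusted p = 0.0252, 0.00762 and 0.027), with the calls lost in 5 of 16, 2 of 16 and 4 of 9 alternatives. Its protease partner Adamts3 was at or near 0 in all libraries. Plau, which encodes urokinase, rose in EpH4 cells by 2.00 ± 0.19 (adjusted p = 0.000957). Sparc, which encodes a matrix protein that binds PDGF-B and VEGF-A, rose in EpH4 cells by 1.42 ± 0.19 (adjusted p = 0.00461, not called in 1 of 16 alternatives) and in EpRas cells by 0.98 ± 0.19 (adjusted p = 0.0363, not called in 12 of 16 alternatives).

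Sparc was also the only gene of the list tested that passed the limit of 1 on the log2(FPKM + 1) scale with both siRNA pairs, in both states. In the order siNC, pair 1 and pair 2, it had 121, 261 and 298 FPKM in untreated and 174, 556 and 546 FPKM in treated cells. In untransfected EpRas cells the mean of Sparc was 335 FPKM without and 659 FPKM with TGF-β, above the siNC values as well. The limit was passed by 4.02% of all genes without and 3.82% with TGF-β, and 0.341% were higher past it in both states. Figf, which encodes the ligand VEGF-D, was under the filter of 5 FPKM and was not counted, with 2.41, 0.710 and 0.632 FPKM in untreated and 0.785, 0.291 and 0.325 FPKM in treated cells in the same order. Its values were thus lower with both pairs than with siNC in both states. Lrp1, an endocytic receptor that associates with PDGFRβ, was higher in EpRas than in EpH4 cells without TGF-β by 1.40 ± 0.21 (adjusted p = 0.00484) and rose with TGF-β in EpH4 cells by 1.2 ± 0.21 (adjusted p = 0.0139, not called in 3 of 16 alternatives).

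Among the signalling proteins that bind activated receptors, Ptpn11, which encodes the phosphatase SHP2, was lower in EpRas cells in both states, by a log2 difference of -0.89 ± 0.15 in untreated (adjusted p = 0.00674) and -0.86 ± 0.15 in treated cells (adjusted p = 0.00589, not called in 1 of 16 alternatives). Plcg2, which encodes phospholipase Cγ2, was lower in EpRas cells as well (-1.21 ± 0.23, adjusted p = 0.0124, lost in 3 of 16 alternatives, and -1.58 ± 0.23, adjusted p = 0.00337). Pik3r1, which encodes a regulatory subunit of PI3-kinase, fell with TGF-β in EpH4 cells (-1.08 ± 0.15, adjusted p = 0.00522, lost in 2 of 15 alternatives) and in siRNA-transfected EpRas cells (-0.84 ± 0.13, adjusted p = 0.0357, lost in 5 of 8). Plcg1, which encodes phospholipase Cγ1, was lower in EpRas cells in both states (-0.62, adjusted p = 0.0299, and -0.57, adjusted p = 0.0351), with the calls lost in 8 and 10 of 16 alternatives. Pik3r1 was lower there without TGF-β (-0.62, adjusted p = 0.0287, lost in 10 of 15). With TGF-β, the adaptor gene Shc1 was lower in EpRas cells (-0.80, adjusted p = 0.0494, lost in 11 of 16 alternatives), as was Plau (-0.85, adjusted p = 0.0203, lost in 4 of 16). Ccbe1 was higher there (0.82, adjusted p = 0.0189, lost in 4 of 16), as was the transcription factor gene Klf5 (1.19, adjusted p = 0.00377). Pdgfrl was 4.11 lower there on the log2 scale (-4.11 ± 0.23, adjusted p = 3.85e-05), and Klf5 fell with TGF-β in EpH4 cells (-0.92, adjusted p = 0.0216, lost in 5 of 16 alternatives).

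Counted over the list, TGF-β raised 7 and lowered 2 of the 23 tested genes in EpH4 cells, where 9.4% of all genes were called, and raised 3 and lowered 1 in EpRas cells, where 3.82% of all genes were called. The median differences were 0.22 and 0.12, against -0.016 and -0.019 for all genes tested. In EpRas against EpH4 cells, 1 was higher and 4 were lower without TGF-β, against 17.6% of all genes called, and 2 were higher and 6 lower with TGF-β, against 21.3% of all genes called. In siRNA-transfected cells 2 of 26 rose and 1 fell with TGF-β, against 4.17% of all genes called (2.62% higher and 1.55% lower). Of these calls, with the difference between the TGF-β effects included, 8 of 30 were kept under every alternative.

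The genes whose pattern was most like that of Pdgfrb were found by the root mean square difference of log2(FPKM + 1), centred within each table, over all 14 libraries among 8616 genes tested in both tables. They were Ces1g (0.39), AI646023 (0.46), Rhoj (0.54), Spn (0.57) and Sept5 (0.57), where the median over all genes was 0.97 and the root mean square of the Pdgfrb profile itself was 0.93. Ces1g had group means of 0.679 FPKM in untreated EpH4, 6.30 FPKM in treated EpH4, 2.56 FPKM in untreated EpRas and 3.26 FPKM in treated EpRas cells. In the order siNC, pair 1 and pair 2, it had 0.322, 2.42 and 3.35 FPKM in untreated and 0.519, 7.44 and 6.26 FPKM in treated cells. It thus had lower values with siNC than with both pairs, like Pdgfrb, but its mean in EpRas cells was not lower with TGF-β.

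For Pdgfa the nearest genes were Chst2 (0.36), Ncam1 (0.36), Vegfc (0.37), Acsbg1 (0.37) and Mical2 (0.44), where the median over all genes was 1.22. Vegfc, itself a ligand of the VEGF family, was among them. Ncam1, which encodes a cell adhesion molecule, had group means of 4.69 and 23.6 FPKM in EpH4 cells and 3.33 and 14.3 FPKM in EpRas cells, without and with TGF-β. These rankings describe likeness over the same libraries and carry no test.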

How the data were processed

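RNA-seq of polyadenylated RNA was performed for 14 libraries of EpH4 and EpRas cells on the Ion Proton with directional libraries. The authors aligned the reads to mm10 with TopHat2 (2.0.11, with Bowtie2 2.2.2.2) and quantified genes with Cuffdiff of Cufflinks 2.2.0, per the methods and the submitters' processing notes. The deposited values are FPKM for each gene and library, with the bounds of the Cuffdiff interval in FPKM. The 2 tables were made from samples processed independently, so tests stayed within a table. FPKM is relative to the total of a library, so a few very abundant genes can lower all others. No per-sample column was left unused (0).

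Genes without OK status (3 and 2) and genes under 5 FPKM in all libraries of a table were left out of the tests. A linear model from limma (3.58.1, R 4.3.3) on log2(FPKM + 1) held 1 mean for each of the 4 untransfected groups, with Benjamini-Hochberg adjustment over all genes tested. Fold changes on this scale understate those of low genes. The paper states that the RNA-seq of untransfected cells was done in biological replicates. The p-values rest on the spread between 2 such samples per group, pooled over the 4 groups and moderated across genes by limma. In the main fit the SE of a gene is therefore the same for both lines, also where the replicates of 1 line lie further apart. The numbers of the replicates do not pair samples. The effect of TGF-β in transfected cells was fitted with the siRNA condition as a block, so its p-values rest on the spread of that effect between siRNA conditions. The limma fit was checked on simulated data. Reads of Pdgfrb and Pgf were recovered from the steps of their FPKM, since their values were whole multiples of 1 step within 0.1 read up to 150 reads. No step was found for the other members. Coordinates came from GENCODE M21 (mm10) and promoters from RefSeq (GRCm38.p6).

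The text names the 9 members, Etv4 and Etv5, genes of the pathway list that passed a test or bear on a member, and the 5 genes nearest in pattern to Pdgfrb and to Pdgfa, leaving out symbols that begin with Mir or Snor. The members, the lists and the tests were chosen with earlier results of these data known. Alternatives were other added values, no or another filter, scaling to the upper quartile, a replicate block, a spread with a trend on level, fits to only the 2 groups compared, the omission of each library, and, for the knockdown, other limits. Calculations outside R used Python 3.11.15, numpy 2.4.6, pandas 2.3.3, scipy 1.17.1 and matplotlib 3.10.9.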

Additional observations from a re-analysis of the deposited data

Results flagged for a closer look

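The effect of TGF-β differed between the lines for Pdgfrb. The difference EpRas minus EpH4 was -2.80 on the log2(FPKM + 1) scale (limma interaction, adjusted p = 0.00636), with higher values in 2 of 2 treated EpH4 libraries and lower values in 2 of 2 treated EpRas libraries. In siRNA-transfected EpRas cells Pdgfrb was instead higher with TGF-β in each siRNA condition, without being called (1.09 to 2.09 FPKM with siNC), and Pdgfrl went both ways. The limma interaction of the untransfected cells gave -3.41 for Pdgfrl (adjusted p = 0.00729), with the same directions in those cells as Pdgfrb. Pdgfrl lost this call without the first or the second treated EpH4 library (adjusted p = 0.0719 and 0.064) or without the second untreated EpRas library (adjusted p = 0.0544). Among the 15 alternatives the adjusted p lay between 0.00278 and 0.0707 for Pdgfrb and between 0.00576 and 0.0719 for Pdgfrl.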

How the results depend on the processing

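The limits of these data are 2 libraries per untransfected group, 1 library per siRNA condition, and few reads for Pgf and for Pdgfrb in the untreated EpH4 libraries (28 and 41) and the untreated siNC library (42). Of the 25 calls of members, 13 were kept under every alternative, and 12 were lost under at least 1. No called change of a member reversed. The uncalled effect of TGF-β on Pgf in EpH4 cells lay between -0.16 and 0.44 when 1 library was left out, and it reversed to -0.02 without the second untreated and to -0.16 without the first treated EpH4 library. The cause of the changes below was not tested. For EpRas against EpH4 without TGF-β, 6 members were called without the filter, against 3 with it, and 2 to 5 when 1 library was left out (5 without either treated EpRas library). With TGF-β, 3 instead of 5 were called in a fit of only the 2 groups compared, and 2 to 6 when 1 library was left out (2 without either treated EpH4 library). For the difference between the TGF-β effects, limma called 0 to 1 members when 1 library was left out (3 or 4 at an unadjusted p under 0.05 where it called 0). For TGF-β in siRNA-transfected cells, 0 were called without the filter (8 at an unadjusted p under 0.05), 2 without the siRNA block, 0 without siRNA pair 1 (6 at an unadjusted p under 0.05) and 1 without pair 2, against 6. For the knockdown without TGF-β, 0 members passed the limit with 5 FPKM added, against 1. With TGF-β, 3 passed it on the mean of both pairs, 4 with pair 1 only and 2 with pair 2 only, against 1. Scaling to the upper quartile moved the median of all genes by under 0.1 in each comparison and changed no count by more than 1.5 times. Pgf could not be tested with a mean of at least 5 FPKM. With the replicate number as a block, 3, 4, 6, 3 and 1 members were called in the 5 untransfected comparisons, against 3, 5, 6, 4 and 1, where Pdgfrb (EpRas against EpH4 with TGF-β, adjusted p = 0.0681) and Pdgfc (TGF-β in EpRas cells, adjusted p = 0.0806) lost their calls. The correlation of the deviations of same-numbered libraries lay between -0.347 and 0.0785.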
